A study of Arabidopsis thaliana with 18 samples.

Results

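The comparison described here sets 3 arrays of SA-treated plants against 3 arrays of silwet-treated plants of the Arabidopsis thaliana accession Van-0. These 6 of the 18 arrays were chosen by their titles: the SA arrays carry the first title numbers 124, 125 and 126, and the silwet arrays 115, 116 and 117, each as Rep1, Rep2 and Rep3. They form the last of 3 runs of consecutive title numbers, and the 3 runs are called title sets 1, 2 and 3. The SA group received 0.3 mM SA in 0.02% silwet and the silwet group 0.02% silwet alone, so both groups carry the surfactant, which helps a solution spread over leaves. The samples are total RNA with a biotin label, measured on ATH1, a 1-colour array of short oligonucleotide probes. The labels give no tissue, plant age or sampling time, and they do not say what a title set or a Rep number marks. No time was therefore assigned to these arrays. The values are MAS5 signals, in which each array is summarised alone and scaled to the same trimmed mean. Differences are given as log2(signal + 2) of SA minus that of silwet, which understates the change of dim probe sets.

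Salicylic acid (SA) is a plant hormone made after attack by biotrophic pathogens. It is perceived through NPR proteins, which act with TGA and WRKY transcription factors to switch on pathogenesis-related and other defence genes. Plants remove active SA by attaching glucose through UDP-glycosyltransferases, by methylation and by hydroxylation. SA also opposes jasmonate and ethylene signalling, whose outputs include the plant defensins PDF1.2 and the thionin THI2.1. In bulk tissue, fewer cells of a type and less RNA per cell cannot be told apart.

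No difference between SA and silwet passed the test in title set 3. UGT76B1, a glucosyltransferase of SA and isoleucic acid, had higher signals on every SA array than on any silwet array. The dioxygenase gene AT5G43450, named because its groups did not overlap, had lower ones. Their log2 differences were 1.32 and -1.02 with all arrays, and 1.27 and -0.97 without Rep1. Of 15922 probe sets tested by limma, 0 passed an adjusted p of 0.05, which is 0% of those tested, and the smallest adjusted p was 0.991. At an unadjusted p under 0.05 there were 1.96%, made up of 145 higher with SA (0.911%) and 167 lower (1.05%). Without any differences, 796 probe sets would be expected at that level. The main fit gave fewer, so its p-values tended to be larger than that expectation. They are therefore no evidence that SA had no effect, and the reason for the shortfall was not tested. Leaving out both Rep1 arrays gave 0 passing probe sets (0%), 144 (0.904%) at an unadjusted p under 0.05 and a smallest adjusted p of 1. Fitting the 6 arrays alone also gave 0, with 374 (2.35%) at an unadjusted p under 0.05. The Rep number as a block over all arrays gave 0, with 831 (5.22%), near the 796 expected, and a smallest adjusted p of 0.62 (limma). The middle of the differences was narrow: the median was 0.03, and the 5th to 95th percentiles ran from -0.45 to 0.70. The median standard error of a probe set was 0.32, and 0.27 with the Rep number as a block. With array weights, whose estimation did not converge, 43 probe sets passed, 21 higher and 22 lower with SA.

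The share of probe sets higher with SA moved with the scaling. Of all probe sets, 54.1% were higher with SA as deposited, against 47.8% after quantile normalization and 42.1% after median centring. The median difference was 0.03, -0.02 and -0.06 under these scalings. All 3 SA signals lay above all 3 silwet signals for 586 probe sets (3.68%) and below them for 735 (4.62%). With 3 arrays against 3 in random order, a probe set separates in either direction with a probability of 0.1. Probe sets without overlap in either direction numbered 1321 (8.3%) here and 2974 (18.7%) in title set 1. Whether these shares differ was not tested.

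The silwet Rep1 array stood apart from the other 5. Its 5' to 3' signal ratio of the GAPDH control was 0.225, against 0.767, 1.01 and 0.904 on the SA arrays and 1.2 and 0.938 on silwet Rep2 and Rep3. The actin ratio was also lowest on that array, at 0.0471 against 0.139 to 0.407 on the other 5 arrays. None of the 6 control ratios passed a test between the treatments (two-sided exact permutation tests, smallest p 0.4, where 3 against 3 cannot go below 0.1; every adjusted p was 1). Silwet Rep1 was at least 2-fold below every other array of title set 3 for 781 probe sets (4.91%), while no other array did so for more than 115 (0.722%). The Rep number held 57.2% of the sum of squares among the 6 arrays, and the treatment 17.4%; equal shares per degree of freedom would give 40% and 20%. The closest pair was SA Rep3 and silwet Rep3, with a median absolute log2 difference of 0.23, and the most distant was SA Rep3 and silwet Rep1, at 0.51.

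The arrays carried strong signals of leaf-type genes. LHCB4.1, a light-harvesting protein of photosystem II, gave 4057, 4045 and 4292 on SA Rep1 to Rep3, against 2992, 4235 and 4315 on silwet Rep1 to Rep3. It was chosen after its values were seen. The leaf marker PORB gave 2805, 2860 and 2505 on SA arrays, against 2126, 2435 and 2387 on silwet arrays. Its groups did not overlap, and the log2 difference of 0.23 did not pass (adjusted p = 0.991, limma). The root hair expansin EXPA18 lay between 16.2 and 21.4 on SA arrays and between 9.70 and 20.8 on silwet arrays. FMA, a regulator of guard cell formation, lay between 34.4 and 57.2 on SA arrays and between 32 and 44.7 on silwet arrays. Flower and seed markers had no probe set that names 1 gene here. The part of tissue differences in the results below was not tested.

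Few known SA genes could be read. A probe set that names a single gene exists here for 3 of 20 SA-response markers and for 5 of 21 genes of SA synthesis, perception and conversion; markers such as PR1 are not analysed here. UGT76B1 had signals of 31.9, 34.8 and 33.8 on SA arrays, against 10.7, 8.72 and 19.2 on silwet arrays. All SA arrays lay above all silwet arrays, and the SA arrays varied little among themselves (33.5 ± 1.48, against 12.9 ± 5.57; SD, n = 3 each). The log2 difference was 1.32 ± 0.43 (SE; adjusted p = 0.991, limma) and 1.27 without Rep1, and in title set 1 it was 3.65 with an adjusted p of 0.00098. UGT76B1 was dim, and its title set 3 difference depended on the pseudocount. With 16 or 32 added to the signal in place of 2, it was 0.79 or 0.55. The difference between the SA effects of title sets 3 and 1, -2.33 ± 0.61, did not pass (adjusted p = 0.245, limma). UGT74F1, another SA glucosyltransferase, was dim at 1.03 to 1.60 on all 6 arrays and was not tested. BSMT1, which methylates SA, gave 18.0, 26.1 and 19.2 on SA arrays, against 33.2, 4.24 and 18.8 on silwet arrays. Its groups overlapped, and the log2 difference of 0.46 rested on the single low value of silwet Rep2.

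SAG101, a lipase-like partner of EDS1, had 37.1, 43.8 and 29.9 on SA arrays, against 57.6, 24.9 and 21.0 on silwet arrays (log2 0.21). AT5G52810, also called SARD4, a reductase in the making of pipecolic acid, had 133, 126 and 174 on SA arrays, against 144, 135 and 147 on silwet arrays (log2 0.01, but -0.064 after quantile normalization). Both genes overlapped between treatments. WRKY53, a senescence and defence regulator, had 63.3, 65.4 and 145 on SA arrays, against 106, 89.9 and 122 on silwet arrays (log2 -0.31). WRKY6 had 54.5, 71.9 and 221 on SA arrays, against 49.2, 60.2 and 112 on silwet arrays (log2 0.45). GRX480, a glutaredoxin that acts with TGA factors, had 101, 115 and 250 on SA arrays, against 154, 116 and 242 on silwet arrays (log2 -0.19). In all 3 of these markers the highest array of each treatment was Rep3. The 3 markers had a median log2 difference of -0.19, against 0.03 over all probe sets tested; 0 of 3 passed. Without Rep1 their median was 0.02, with 2 higher and 1 lower. All 4 tested members of the list on SA synthesis, perception and conversion had higher values with SA, with a median of 0.33, or 0.86 without Rep1. Their medians were -0.36, 1.27 and 0.35 in the Rep1 to Rep3 pairs, and 1 of 4 was higher in all 3 pairs. Under either other scaling 3 of 4 were higher, and 0 of 4 passed.

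**Figure D1:**
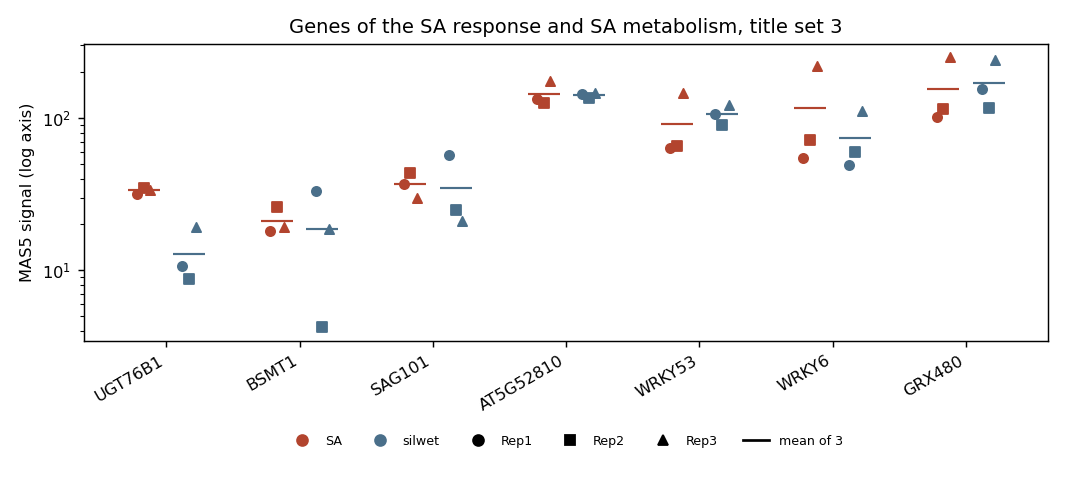
MAS5 signals (log axis) of SA-related genes on each SA array (left of each pair) and silwet array (right), with symbols for Rep1 to Rep3 and a line for the mean of 3. UGT76B1 separates the treatments at 31.9 to 34.8 with SA, against 8.72 to 19.2 with silwet, while the other genes plotted overlap.

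The probe sets that passed in title set 1 were split in direction in title set 3. Title set 1 had 129 passing probe sets (0.81%) in the same fit, 73 higher (0.458%) and 56 lower (0.352%). Title sets 1 and 3 share no arrays, though the fit pools their spread. Of the 73 probe sets higher with SA in title set 1, 35 were higher and 38 lower in title set 3, with a median log2 difference of -0.01 and 0.06 without Rep1. All 3 SA arrays lay above all silwet arrays for 6 of them and below for 10, against 3.68% and 4.62% of all probe sets tested. After quantile normalization 30 of the 73 were higher and 43 lower, and after median centring 23 and 50, with medians of -0.09 and -0.11. Of the 56 lower in title set 1, 23 were higher and 33 lower here, with a median of -0.07. None of either list passed in title set 3. AT3G13610, feruloyl-CoA 6'-hydroxylase of scopoletin synthesis, did not overlap between the treatments, with 42.7, 32 and 58.9 on SA arrays, against 31.3, 21.6 and 3.70 on silwet arrays. Every SA array lay above every silwet array by a narrow margin. The log2 difference was 1.46 (adjusted p = 0.991, limma), or 1.97 without Rep1, and it was 3.41 in title set 1. It leaned on the low silwet Rep3 value: the Rep pairs differed by 0.42, 0.53 and 3.42. AT3G28510, an AAA-type ATPase gene, had 8.36, 20.1 and 13.8 on SA arrays, against 6.94, 11.2 and 7.39 on silwet arrays; the groups overlapped and the log2 difference was 0.57, against 3.67 in title set 1. Log2 differences were 0.46 for AT5G44570 and 0.10 for UGT73D1, a glycosyltransferase, against 2.49 and 2.18 in title set 1.

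**Figure D2:**
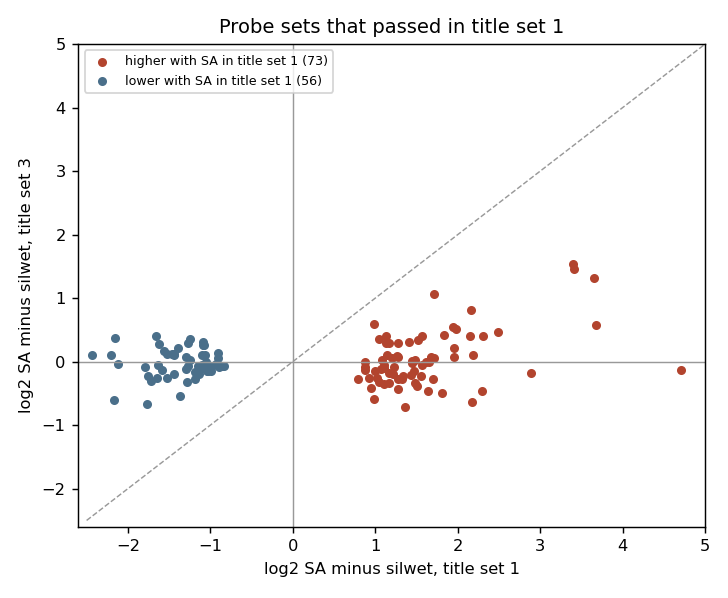
Each point is a probe set that passed in title set 1, at its log2 SA minus silwet in title set 1 (horizontal) and title set 3 (vertical); the dashed line marks equal differences. The points of title set 3 gather around 0, with medians of -0.01 for the 73 higher and -0.07 for the 56 lower in title set 1.

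Testing the SA effect of title set 3 against that of title set 1, 1 of 15922 probe sets passed (0.00628%), with 1230 (7.73%) at an unadjusted p under 0.05. It is 245035_at, which names no gene here. Its signals were 80.4, 79.5 and 129 on the SA arrays, against 101, 93.2 and 116 on the silwet arrays of title set 3, and these groups overlapped. In title set 1 they were 1374, 1279 and 959 on SA arrays, against 85, 22.2 and 44.2 on silwet arrays. The effect in title set 3 minus that in title set 1 was -4.83 (SE 0.54, adjusted p = 0.00145, limma). Without the Rep1 arrays of title set 3, and with all arrays of title set 1, it was -4.73 (adjusted p = 0.0406, limma). With the Rep number as a block 3 probe sets passed (0.0188%), with 1913 (12%) at an unadjusted p under 0.05, the others being AT5G24210 and the unnamed 249890_at. Against title set 2, 0 passed, with 684 (4.3%) at an unadjusted p under 0.05 and a smallest adjusted p of 0.239.

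AT5G24210, a lipase class 3 family gene, had lower signals with SA here and in title set 2, and higher ones in title set 1. Its signals were 571, 648 and 600 on SA arrays, against 920, 977 and 840 on silwet arrays. All SA arrays lay below all silwet arrays, with a log2 difference of -0.59. It was -0.79 in title set 2, which did not pass, and 0.98 in title set 1 (adjusted p of the difference between sets 3 and 1 of 0.1, and 0.0243 with the Rep block, limma). AT3G48640 had 653, 689 and 819 on SA arrays, against 1273, 1007 and 1122 on silwet arrays. The log2 difference was -0.65 ± 0.17 (adjusted p = 0.991, limma) and -0.50 without Rep1. AT1G23850 had 182, 166 and 181 on SA arrays, against 340, 253 and 231 on silwet arrays (log2 -0.62). AT5G37070 had 242.4, 226.7 and 266.1 on SA arrays, against 398.3, 377.5 and 356.8 on silwet arrays (log2 -0.62). These 4 genes were picked for their small unadjusted p, after the values were seen, so they are described and not tested further. AT4G32250 was likewise picked: its SA arrays gave 117, 84.2 and 94.7, against 64.5, 59.7 and 62.3 on silwet arrays (log2 0.64).

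Ranked here are non-overlapping probe sets that name 1 gene, with a mean signal of at least 50 in 1 group. The widest lower differences among them included AT5G43450, a gene related to 1-aminocyclopropane-1-carboxylate oxidase. It had 261, 363 and 173 on SA arrays, against 569, 630 and 386 on silwet arrays. The groups did not overlap, and the difference was -1.02 ± 0.29 with all arrays (adjusted p = 0.991, limma) and -0.97 without Rep1. AT1G13470, of a family of unknown function, had 303, 379 and 255 on SA arrays, against 687, 433 and 480 on silwet arrays (log2 -0.76, and -0.55 without Rep1). NRPB9B, a subunit of RNA polymerase II, had 65.1, 65.2 and 47.7 on SA arrays, against 227, 88.0 and 66.7 on silwet arrays. Its difference of -0.89 was carried mainly by silwet Rep1, and it was -0.44 without Rep1. AT5G55420 had 29.9, 27.1 and 32.3 on SA arrays, against 86.5, 58.5 and 58.6 on silwet arrays. This was the widest lower difference among the probe sets ranked here, -1.12, and it was -0.94 without Rep1. AT5G09570, of a family of small cysteine-rich mitochondrial proteins, had 90.5, 98.4 and 103 on SA arrays, against 108, 245 and 182 on silwet arrays. The groups did not overlap, and the difference was -0.79 with all arrays and -1.05 without Rep1. The plastid ribosomal protein gene rps15 had 25.2, 64.1 and 60.3 on SA arrays, against 95.8, 85.6 and 93.1 on silwet arrays (log2 -0.95, and -0.51 without Rep1). AT1G21520, AT3G23170, AT3G62450, AT3G26360, psaC and ndhJ completed the 12 widest ranked differences of this direction, at -0.77 to -0.72.

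On the higher side, ranked in the same way, several of the widest non-overlapping differences held a low value on silwet Rep1. AN, which encodes ANGUSTIFOLIA, a regulator of cell shape, had 59.1, 75.1 and 54.2 on SA arrays, against 1.95, 52.6 and 49.7 on silwet arrays. The log2 difference was 1.52 with all arrays and 0.31 without Rep1. GI, the clock and flowering regulator GIGANTEA, had 345, 497 and 279 on SA arrays, against 68.6, 262 and 266 on silwet arrays (log2 1.09, and 0.49 without Rep1). FDH, formate dehydrogenase, had 845, 711 and 968 on SA arrays, against 222, 653 and 635 on silwet arrays (log2 0.88, and 0.36 without Rep1). GH9B13, an endoglucanase-like gene, had 126, 82.4 and 107 on SA arrays, against 42.7, 61.4 and 64.3 on silwet arrays, with log2 0.88 and 0.56 without Rep1. AT2G17930, which encodes a large protein related to phosphatidylinositol kinases, had 68.9, 136 and 52.4 on SA arrays, against 37.6, 39.1 and 45.4 on silwet arrays. Here the high value was SA Rep2, and the log2 difference was 0.93 with all arrays and 0.97 without Rep1. AT1G48090 had 88.1, 142 and 83.2 on SA arrays, against 24.9, 56.3 and 66.0 on silwet arrays (log2 1.12, and 0.81 without Rep1). The other 6 of the 12 widest in this ranking, AT3G50370, AT2G47390, PKDM7D, AT1G15180, AT1G03740 and AT4G32420, had log2 differences from 0.87 to 1.30. Without Rep1 these were 0.57 for AT3G50370, 0.34 for AT2G47390 and 0.28 for AT1G15180, against 1.30, 1.19 and 0.95 with all arrays, and 0.77 to 0.93 for the other 3. None of the 12 passed.

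**Figure D3:**
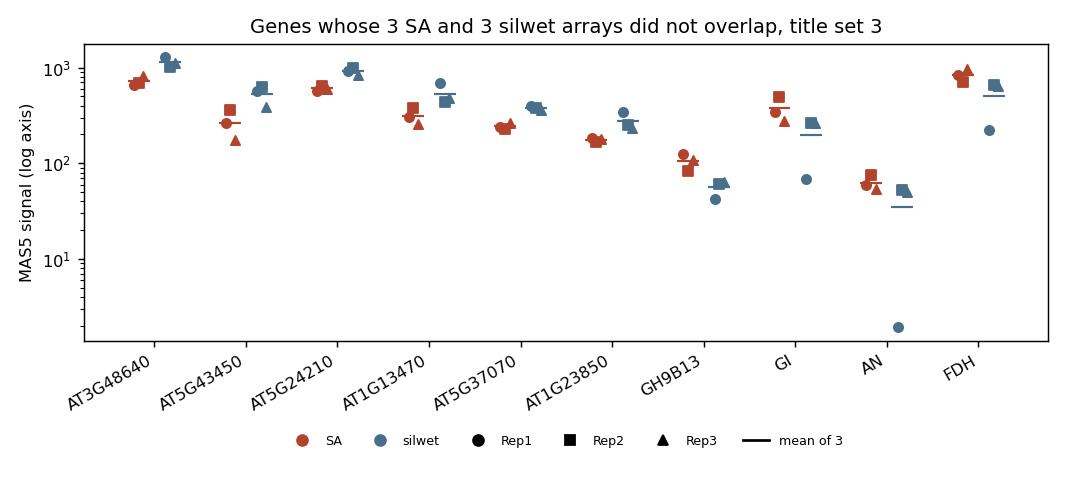
MAS5 signals (log axis) of genes whose 3 SA arrays (left of each pair) and 3 silwet arrays (right) did not overlap, with a line for the mean of 3. AT5G43450 and AT3G48640 are lower with SA on every array, whereas AN and GI are set apart mainly by the silwet Rep1 value.

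Families gave small shifts. Of the 32 tested UDP-glycosyltransferases, 24 were higher with SA (21 without Rep1), and the median was 0.15, or 0.06 without Rep1. The count was 20 after quantile normalization and 18 after median centring, and 0 passed. All 3 SA arrays lay above all silwet arrays for 2 of the 32 members, UGT76B1 and UGT76D1, against 3.68% of all probe sets. Of the 12 tested CYP71B cytochrome P450 genes, 9 were lower with SA, with a median of -0.19 and -0.10 without Rep1. CYP71B24 had 27.1, 26.7 and 16.3 on SA arrays, against 53.1, 28.9 and 44.7 on silwet arrays (log2 -0.79), and its groups did not overlap. All 5 tested glutamate receptor-like genes, which form calcium-permeable channels, were higher with SA, at 0.21 to 0.44. All 5 were also higher after quantile normalization and median centring. Their median was 0.45, 0.59 and 0.09 in the Rep1 to Rep3 pairs, and 1 of 5 was higher in all 3 pairs. In title sets 1 and 2 their medians were -0.27 and -0.49. SWEET sugar transporters were higher in 3 and lower in 8 of 11, and tau-class glutathione S-transferases were higher in 4 and lower in 4 of 8. Expansins and xyloglucan hydrolases, which loosen cell walls, were higher in 11 of 15, but in 7 of 15 without Rep1. WRKY factors were higher in 5 of 6, and in 3 of 6 without Rep1 or after quantile normalization. Autophagy genes were lower in 6 of 8 with all arrays and higher in 6 of 8 without Rep1. After median centring 8 of 15 expansins and hydrolases were higher. Beta-glucosidases were higher in 7 of 11 and bZIP factors in 4 of 6, against 5 and 3 after median centring. None of these members passed.

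Plastid-encoded genes gave mostly lower values with SA, none of which passed. All 10 tested NDH genes, which encode subunits of the chloroplast NADH dehydrogenase-like complex, were lower, with a median of -0.38 and -0.46 without Rep1, and all 10 were lower under both other scalings. The Rep pairs differed widely: the median was -0.43 in Rep1, 0.06 in Rep2 and -0.94 in Rep3. ndhJ had 259.1, 330.2 and 345.7 on SA arrays, against 400.5, 374.8 and 984.6 on silwet arrays. ndhG had 80.3, 112.6 and 84.9 on SA arrays, against 111.2, 97.8 and 375.5 on silwet arrays. The silwet Rep3 array was the high one in both. Plastid-encoded photosynthesis genes were lower in 22 of 33 and plastid-encoded gene expression genes in 16 of 19, with medians of -0.07 and -0.21. In the Rep1 to Rep3 pairs the photosynthesis genes had medians of -0.29, 0.10 and -0.56. The gene expression genes had -0.48, 0.24 and -0.46, so the Rep2 pair went the other way in both groups. After quantile normalization, 16 of the 33 photosynthesis genes were lower and 17 higher, and after median centring 25 were lower. psbA, the D1 protein of photosystem II, had 1445, 439 and 66.7 on SA arrays, against 1533, 366 and 163 on silwet arrays, so that Rep1 was high and Rep3 low in both treatments. atpH had 250, 569 and 313 on SA arrays, against 389, 399 and 1757 on silwet arrays (log2 -0.87), and silwet Rep3 was again the high one. petN had 111, 62.4 and 92.3 on SA arrays, against 314, 68.9 and 223 on silwet arrays (log2 -0.96).

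**Figure D4:**
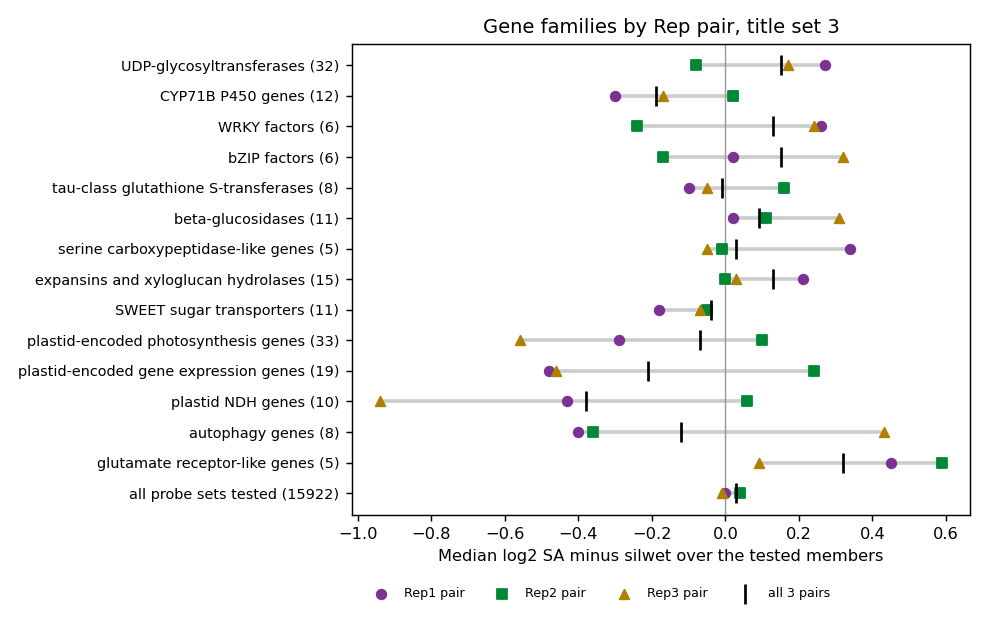
Median log2 SA minus silwet over the tested members of each family (members in brackets), for each Rep pair (symbols) and all 3 pairs (bar). The plastid NDH genes run from -0.94 in the Rep3 pair to 0.06 in the Rep2 pair, and all probe sets lie near 0.

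The short lists of other pathways had 0 passing members. Of their tested members, 3 of 4 detoxification genes, 2 of 3 senescence and abscisic acid genes, 3 of 3 touch and early stress genes, 2 of 3 auxin genes and 4 of 4 nuclear photosynthesis genes were higher with SA, the last in 2 of 4 without Rep1. Higher values were found in 1 of 3 genes of protein folding in the endoplasmic reticulum, 1 of 3 cell wall loosening genes and 2 of 2 secretion genes. Quantile normalization or median centring moved each of these counts by at most 1. Jasmonate and ethylene defence genes were lower with SA in 3 of 3. PDF1.2b had 104, 20.8 and 69.6 on SA arrays, against 799, 19.8 and 77.0 on silwet arrays, and PDF1.2 had 52.7, 21.1 and 17.5 against 192, 22.1 and 18.1. THI2.1 had 8.24, 15.3 and 16.2 against 57.9, 10.9 and 17.4. Silwet Rep1 was the highest array for all 3, and SA Rep1 was the next highest for PDF1.2b and PDF1.2. Without Rep1 the median was -0.04. GH3.3, an auxin-conjugating enzyme, had 57.6, 68.3 and 71.4 on SA arrays, against 8.74, 27.0 and 65.5 on silwet arrays. Its groups overlapped, and the log2 difference of 1.29 was 0.70 without Rep1. SAG29, a SWEET family sugar transporter of senescent leaves, had 130, 48.6 and 90.8 on SA arrays, against 61.2, 2.86 and 94.1 on silwet arrays (log2 1.46). Its Rep pairs differed by 1.06, 3.38 and -0.05, so that the low silwet Rep2 value carried most of it. ATERDJ3B, a J-protein of the endoplasmic reticulum, had 369, 470 and 284 on SA arrays, against 591, 479 and 469 on silwet arrays (log2 -0.48). RCA, Rubisco activase, had 3420, 3739 and 3246 on SA arrays, against 1497, 3435 and 3755 on silwet arrays. The low value was silwet Rep1, and the difference of 0.37 became -0.04 without Rep1. GAPC2, a cytosolic glyceraldehyde-3-phosphate dehydrogenase used as a reference, had 2812, 2829 and 2667 on SA arrays, against 3017, 2923 and 3253 on silwet arrays (log2 -0.14, but 0.01 after quantile normalization).

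Differences also followed gene length. Over 8575 nuclear genes with 1 tested probe set and a length in the gene table, the median log2 difference was -0.17 in the shortest of 4 bins of nearly equal size (78 to 1658 bp) and 0.23 in the longest (3182 to 26499 bp). Without Rep1 these were -0.10 and 0.16. The Rep1 and Rep2 pairs showed the gradient, from -0.32 to 0.27 and from -0.19 to 0.35, and the Rep3 pair did not, at -0.01 and 0.02. Against the mean of the other 5 arrays, the longest bin was at 0.45 on SA Rep2 and at -0.19 on silwet Rep1. The part of gene length in the differences given above was not tested.

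**Figure D5:**
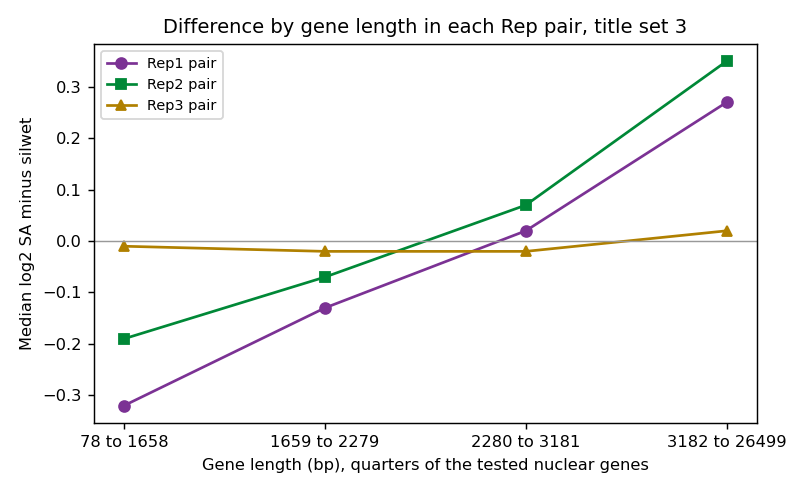
Median log2 SA minus silwet (vertical) over genes in 4 bins of length in bp (horizontal), for each Rep pair. The Rep1 and Rep2 lines climb from -0.32 and -0.19 to 0.27 and 0.35, and the Rep3 line stays near 0.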

How the data were processed

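Total RNA of 18 Van-0 samples was measured on ATH1 arrays, 1 per array. The authors deposited 1 intensity per probe set and array, made with MAS5 per the submitters' processing notes, whose version is not given in the sources used here. These deposited values are linear, and each array's mean without its lowest and highest 2% is 100. Their medians ran from 23.3 to 36.6. The number of arrays limits the precision. Groups came from the treatment in the titles and the 3 title sets from the title numbers.

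Signals were analysed as log2(signal + 2), without the 64 AFFX control probe sets and the lowest 30% by mean, which left 15922. All 18 arrays in 6 groups entered 1 fit in limma 3.58.1 (R 4.3.3; eBayes with an intensity trend, Benjamini-Hochberg adjustment, threshold 0.05). Labels do not say that the samples came from separate plants, so the p-values reflect only how these samples vary, which may be technical. Same-numbered Rep arrays deviated together (correlations of deviations 0.35, 0.29 and 0.53 for Rep1, Rep2 and Rep3), so the Rep number pairs them. The main fit does not use this pairing, and for title set 3 its p-values tended to be larger than expected without differences. Standard errors and p-values per gene come from that unpaired fit unless the Rep block is named. The test was tried on simulated data with independent noise and no Rep structure, with 200 probe sets changed per run. The main fit recovered 22% of 2-fold and 83.8% of 4-fold changes. Fitting the 6 arrays alone recovered 5.4% and 74.8%. A 2-fold change would therefore often be missed, and not passing does not show that a gene was unchanged. Of 22810 probe sets, 13513 name 1 gene, 503 several and 8794 none here; 13436 matched the TAIR10.1 gene table by identifier. Named genes are all SA-related genes with a probe set, the 12 widest non-overlapping differences in each direction (mean signal at least 50 in 1 group) and the 2 widest of each other list, of which a part is named in the text. Genes said to be picked after their values were seen and the leading genes of title set 1 lie outside that rule. So do LHCB4.1, PORB, PDF1.2, GAPC2, psbA and AT5G24210. The members and lists were chosen with earlier results of these data known. Alternatives covered the pseudocount, filter, scaling, trend, array weights, the Rep block, 6 arrays alone and each array or Rep number left out.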

Additional observations from a re-analysis of the deposited data

Results flagged for a closer look

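The SA effect on probe set 245035_at, which names no gene here, differed between title sets 3 and 1 by -4.83 on the log2 scale (adjusted p = 0.00145, limma), a difference that was tested itself. Its SA signals were 80.4, 79.5 and 129 in title set 3, against 1374, 1279 and 959 in title set 1; silwet signals were 101, 93.2 and 116, against 85, 22.2 and 44.2. The cause was not tested.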

How the results depend on the processing

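For SA minus silwet in title set 3, 0 probe sets passed under every alternative except array weights (43), and without Rep1 0 passed except with the Rep number as a replicate block on the 4 remaining arrays (57), a fit with a single residual degree of freedom; those alternatives without Rep1 were chosen after seeing the data. For title set 3 against title set 1 the count was 1. It was 5 with a pseudocount of 16, 14 with 32, 5 after quantile normalization, 3 with the replicate block and 1603 with array weights. Leaving out arrays of title set 3 gave 1 to 2, the 2 without silwet Rep3. Against title set 2 the count was 0, and 1891 with array weights. The replicate block changed no other call. Over 60 of the named genes there were 1195 alternative values, of which 1143 kept direction and call. Of the rest, 46 in 18 genes changed sign, and 6 passed under array weights only. These 6 were GH9B13, AT5G43450, rps15, AT3G48640, AT5G37070 and AT4G32250, with adjusted p from 0.0319 to 0.0481 (limma). With array weights, whose estimation did not converge, the log2 differences that changed sign were WRKY6 -0.13, AT5G52810 -0.043, PDF1.2b 1.06, PDF1.2 0.70, AT3G28510 -0.019, AT5G44570 -0.70, UGT73D1 -0.56, LHCB4.1 -0.014, psbA 1.54, ECS1 -0.011 and AT5G38980 -0.031. Median centring gave AT5G52810 -0.091 and UGT73D1 -0.0019, and quantile normalization AT5G52810 -0.064 and GAPC2 0.013. Leaving out arrays or Rep numbers, the log2 difference ran from -0.59 to 0.094 for GRX480, -1.32 to 0.17 for THI2.1, -0.053 to 0.66 for RCA, -0.05 to 0.22 for LHCB4.1, -0.07 to 0.63 for SAG101, -0.39 to 1.10 for BSMT1, -0.14 to 0.53 for UGT73D1, -0.13 to 0.098 for AT5G52810, -1.38 to 0.82 for psbA, -0.61 to 2.33 for ECS1, -0.29 to 3.05 for AT5G38980, -0.14 to 0.85 for WRKY6, -2.18 to 0.42 for PDF1.2b, -0.22 to 0.87 for AT5G44570, -1.23 to 0.40 for PDF1.2 and -0.0067 to 0.47 for EXPA18. Causes were not tested.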

Other observations

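SA Rep3 held 2 signals far above those of every other array. ECS1, which encodes a cell wall protein, read 2152 on SA Rep3, 39.9 and 34.9 on SA Rep1 and Rep2, and 65.0, 45.2 and 65.7 on silwet arrays; the 12 arrays of the other title sets lay between 23.9 and 124. AT5G38980 read 311 on SA Rep3, 1.52 and 6.93 on SA Rep1 and Rep2, and 5.90, 2.16 and 7.81 on silwet arrays, with the other 12 arrays at 0.889 to 13.4. AT1G09750, an aspartyl protease family gene, read 890, 999 and 1132 on SA arrays, against 111, 866 and 1074 on silwet arrays, and silwet Rep1 was the low one; the other 12 arrays lay between 87.9 and 1388. All 3 genes were singled out once their values were known.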
